A study of Mus musculus with 4 samples.

Results

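The genes described here were 8 components of the Hedgehog pathway, namely the ligand Shh, the receptor Ptch1, the transducer Smo, the transcription factors Gli1, Gli2 and Gli3, the ligand-binding inhibitor Hhip and the co-receptor Gas1. They were chosen as a list and matched by Ensembl identifier among the 27514 identifiers shared by the gene tables of all 4 libraries, and all 8 were found. The study sorted cells that carried or descended from cells with Tbx1 expression, to compare the control with the loss of Tbx1 in the pharyngeal apparatus and heart. Both genotypes were in Swiss Webster mice, with both sexes used. In the control (Ctrl; Tbx1Cre/+;Rosa26-GFPflox/+), Cre recombinase was expressed from 1 allele of Tbx1 and the other allele was intact. In the conditional knockout (cKO; Tbx1Cre/flox;Rosa26-GFPflox/+), the other allele of Tbx1 was flanked by loxP sites. Both genotypes therefore lacked 1 normal Tbx1 allele and carried 1 Cre-dependent GFP reporter. The upper part of the body was dissected at embryonic day (E) 8.5, and the pharyngeal apparatus with the heart at E9.5. Embryos were pooled, and living GFP-positive cells were sorted and captured on a droplet instrument with 3′-end chemistry. GFP marked every cell in which the Tbx1 locus had driven Cre, whatever its later type.

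Hedgehog ligands bind Ptch1, which otherwise keeps Smo inactive. Once Smo is released, Gli2 is the main activator and Gli3, when processed, the main repressor of target genes, and Ptch1, Gli1 and Hhip are themselves transcribed in response to the signal. Hhip binds and retains the ligand, whereas Gas1 helps cells that carry Ptch1 to receive it. In the pharyngeal region Shh is known to be made by the pharyngeal endoderm and received by neighbouring mesenchyme and second heart field, and its loss disturbs the arches and the outflow tract.

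In GRCm38.p6, as listed by RefSeq, Shh (ENSMUSG00000002633) lies on chromosome 5 at 28456840 to 28467101. Ptch1 (ENSMUSG00000021466), Gli3 (ENSMUSG00000021318) and Gas1 (ENSMUSG00000052957) all lie on chromosome 13, at 63508328 to 63573460, 15463723 to 15730026 and 60174405 to 60177535. Smo (ENSMUSG00000001761) lies on chromosome 6 at 29735497 to 29761366, Gli1 (ENSMUSG00000025407) on chromosome 10 at 127329882 to 127341579, Gli2 (ENSMUSG00000048402) on chromosome 1 at 118834061 to 119054405 and Hhip (ENSMUSG00000064325) on chromosome 8 at 79965850 to 80058060. The Gli-binding motif GACCACCCA was searched on both strands in the 250 bases upstream of the start used by each RefSeq promoter window. Windows were given for 6 members, all but Shh and Gli1. Those of Ptch1 (63565686 to 63565985) and Gli2 (119053570 to 119053869) lay inside the gene spans given above. Bases upstream of these spans were therefore not searched. No member's window held the motif, also with 1 mismatch allowed, against 0.225% of 32851 windows exactly and 5.79% with up to 1 mismatch. This says only that these letters are not in these windows.

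The libraries held 1434 (Ctrl E8.5), 1090 (cKO E8.5), 5453 (Ctrl E9.5) and 6266 (cKO E9.5) cells, with 25391654 to 104773150 unique molecular identifiers (UMIs) per library. The median cell held 17319.5, 23984, 16666 and 15910.5 UMIs in the same order. There was 1 library per group, so no p-value was computed, and all intervals are exact 95% intervals that cover counting error only, without the variation between embryos or preparations. Levels are UMIs of a gene per 1000000 UMIs of the shared genes in the same cells (UPM), and because tags come from the 3′ end without a length scale they were compared within a gene only. The targeted gene was not lower in the cKO libraries, with Tbx1 at 86.4 (Ctrl E8.5), 118 (cKO E8.5), 103 (Ctrl E9.5) and 134 UPM (cKO E9.5). Whether these 3′ tags lie in the deleted part of Tbx1 is not given in the sources used here, so its level does not check the genotype. The cKO E9.5 library alone was counted on another gene table, so that for every ratio of cKO to Ctrl at E9.5 the table and the genotype cannot be told apart. At E8.5 the study lists a slightly higher range of somites for the cKO embryos than for the Ctrl embryos. For ratios of cKO to Ctrl at E8.5, somite stage and genotype therefore cannot be told apart.

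Cells were grouped by marker gates, which are rules named after their marker lists. A cell joined the class with most of its markers detected if at least 3 were, and Hedgehog genes were never used. Outside the lists, the epithelial gate was led by Krt18, Cldn4 and Spint2, the endothelial gate by Cldn5, Icam2 and Cd34, the cardiomyocyte gate by Actc1, Myh7 and Tnnc1 and the head mesenchyme gate by Col3a1, Tgfbi and Foxd1. The head mesenchyme gate held 386, 425, 2487 and 3813 cells in the order of libraries above, and the multilineage progenitor gate held 355, 177, 328 and 418. Tbx1 is a marker of the second of these and was detected in 65.2% to 73.2% of all cells of a library, so that gate is broad. The epithelial gate held 13, 12, 654 and 168 cells, of which 6, 7, 335 and 58 fell in an endoderm sub-gate by at least 2 of Foxa1, Nkx2-1, Foxe1, Pax9, Nkx2-3, Nkx2-6, Hhex and Sox17. Between 19.5% and 34.1% of cells stayed ungated, and groups under 20 cells were not compared.

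Shh, the ligand among the members, was seen in few cells, and most of its UMIs were in Ctrl E9.5. It had 6 and 2 UMIs at E8.5 (Ctrl, cKO) and 149 and 19 UMIs at E9.5 (Ctrl, cKO), which were levels of 0.238, 0.0777, 1.58 and 0.182 UPM. The Ctrl E9.5 library thus stood above the other 3, with an interval of 1.34 to 1.86 UPM that did not overlap theirs. The log2 ratio of cKO to Ctrl at E9.5 was -3.12 (interval -3.89 to -2.43), against a median of -0.26 over all genes in these libraries. With a call defined as a ratio of at least 2-fold and at least 20 UMIs in both libraries together, Shh was the 1 of 8 members called at E9.5, where 13.4% of 15130 genes were called in either direction and 9.8% were called lower. At E8.5 Shh had too few UMIs for a call.

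**Figure D1:**
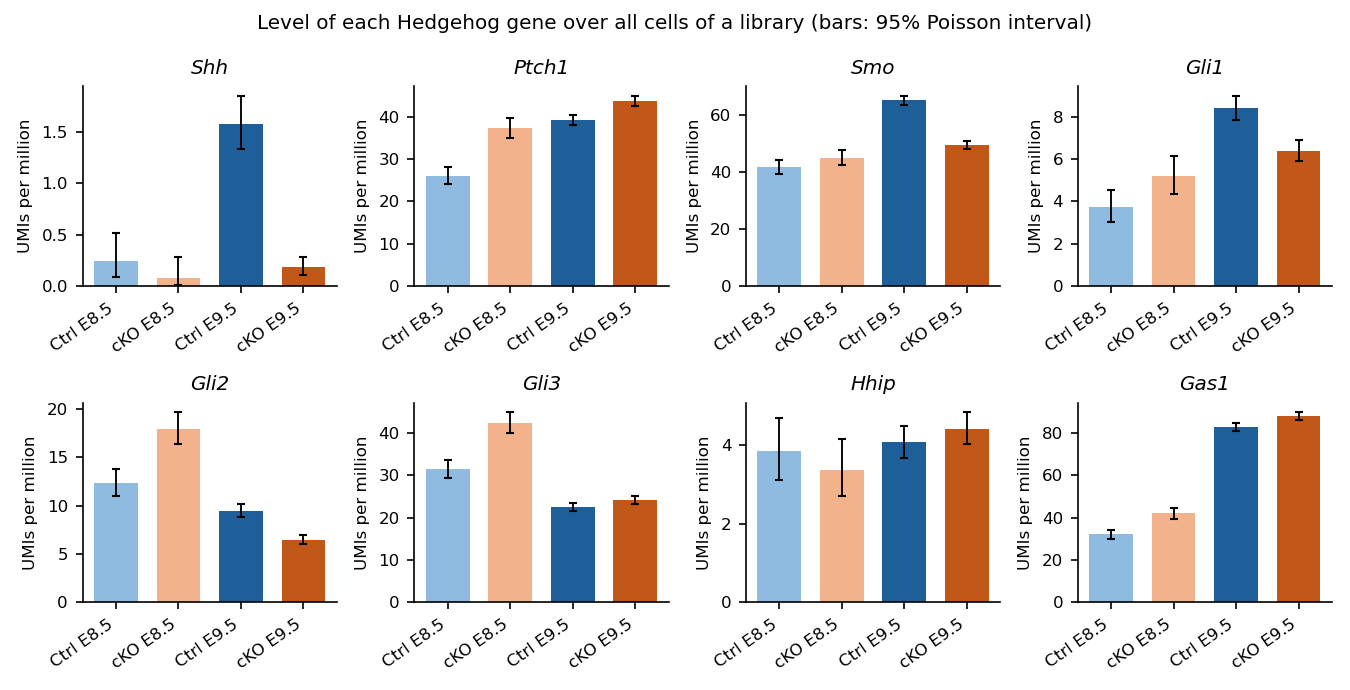
Levels of each Hedgehog gene in UPM over all cells of the 4 libraries, 1 panel per gene with its own axis from 0, where bars on columns are exact 95% Poisson intervals of counting error. Shh stood highest in Ctrl E9.5 at 1.58 UPM, whereas Gas1 was at 82.9 and 87.9 UPM in the E9.5 libraries and at 32.0 and 41.9 UPM in the E8.5 libraries.

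Shh lay mostly in the epithelial gate. In Ctrl E9.5 the gate held 117 of 149 Shh UMIs (78.5%), and its endoderm sub-gate held 107. In cKO E9.5 it held 17 of 19 UMIs (89.5%), with 15 in the endoderm sub-gate. Ungated cells of Ctrl E9.5 held 24 Shh UMIs, in 10 cells, and those of cKO E9.5 held 0. In Ctrl E9.5 the level was 9.42 UPM in the epithelial gate and at most 0.820 UPM in any other gate compared, and the epithelial interval lay apart from the next gate. After each cell was thinned to 10000 UMIs, 1 of 2305 head mesenchyme cells of Ctrl E9.5 carried a Shh UMI, as did 0 of 397 endothelial cells, which, at 3 counts of the total, allows a share of up to 0.756% of cells with a UMI.

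Within the epithelial gate the ratio of Shh was closer to 0 than over all cells. At E9.5 its level was 9.42 UPM (interval 7.79 to 11.3) in Ctrl and 5.20 UPM in cKO, a log2 ratio of -0.86 (-1.69 to -0.12). This did not pass the 2-fold call made for 9.08% of 11604 genes in this gate, and its interval held their median of -0.21. In the endoderm sub-gate Shh was 16.7 UPM in Ctrl and 12.1 UPM in cKO, a log2 ratio of -0.46 with an interval of -1.35 to 0.32 that included no difference. After thinning, 29 of 315 endoderm cells of Ctrl (9.21%) and 3 of 57 of cKO (5.26%) carried a Shh UMI, and the intervals of 6.25% to 13.0% and 1.10% to 14.6% overlapped. Unthinned, 12.2% of Ctrl and 10.3% of cKO endoderm cells carried one, with 18606 and 18770 UMIs in the median cell.

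The gate itself was smaller in cKO E9.5. At E9.5 the epithelial gate held 12.0% of Ctrl cells and 2.68% of cKO cells, and the endoderm sub-gate held 6.14% and 0.926%. With the gate shares of Ctrl kept and only the levels within gates taken from cKO, the log2 ratio of Shh over all cells was -1.18, and the same change of levels at the gate shares of cKO gave -1.84. With the levels of Ctrl kept and only the gate shares taken from cKO, it was -1.29. Each was therefore smaller in size than the observed -3.12, and with 1 library of pooled embryos per genotype the share of cells recovered cannot be told apart from a difference between the embryos. Ungated cells, with 24 and 0 Shh UMIs (Ctrl, cKO), counted as a gate here, and the epithelial gate was not split. Several of the Shh-positive ungated Ctrl cells had 3 to 5 epithelial and 3 or 4 endoderm markers and were ungated only by a tie with another class. The endoderm sub-gate held 335 of the 654 epithelial cells in Ctrl and 58 of 168 in cKO. The kinds of cells within a gate thus also enter the change of levels, and their part was not tested. Cells that reached the minimum of several marker classes counted in the ratios above. Without them, a choice that removed 1914 Ctrl and 2225 cKO cells at E9.5, the log2 ratio of Shh was -4.36 over all cells, -2.58 in the epithelial gate and -2.97 in the endoderm sub-gate. The last was -1.52 when cells were gated after thinning, so the size of the difference within endoderm cells depends on how the cells were gated.

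**Figure D2:**
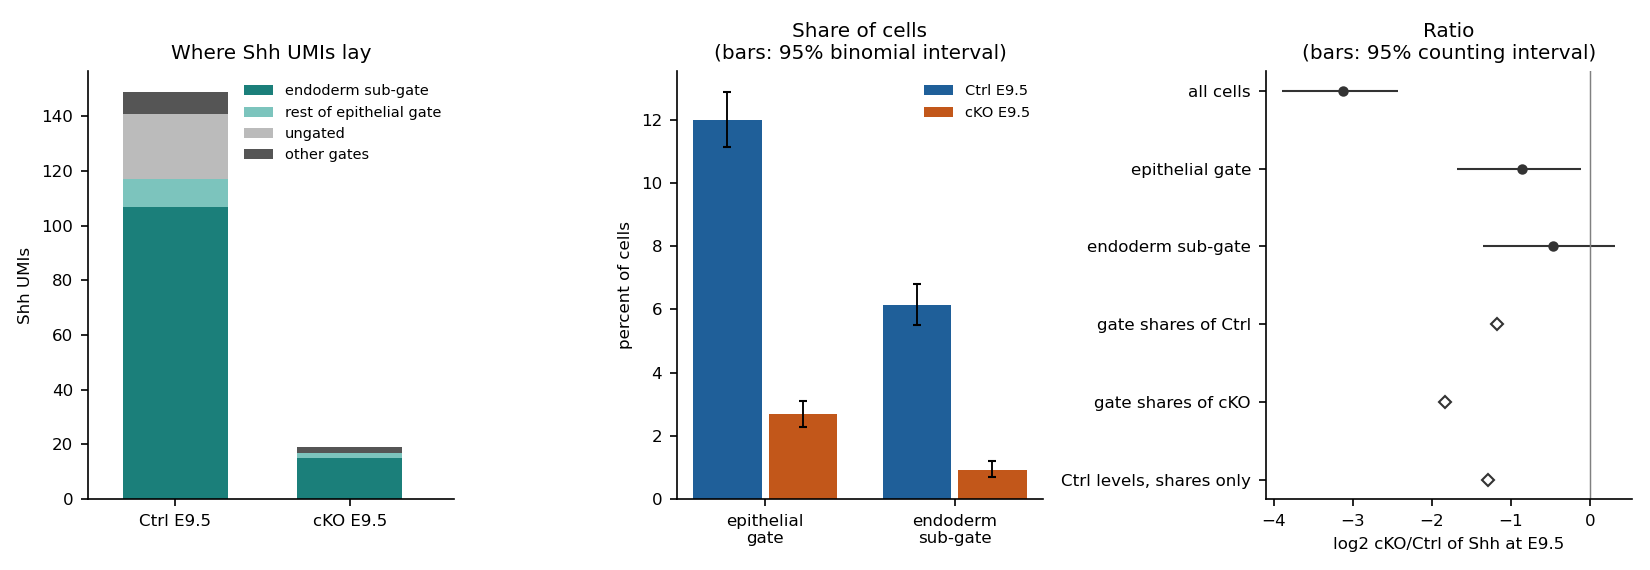
Shh at E9.5: UMIs by gate in each library (left), the share of cells in the epithelial gate and its endoderm sub-gate with exact 95% binomial intervals (middle), and the log2 ratio of cKO to Ctrl (right), where filled points have 95% counting intervals and open diamonds are ratios recomputed with gate shares or levels held fixed. The ratio was -3.12 over all cells, -0.86 in the epithelial gate and -0.46 in the endoderm sub-gate, and the epithelial share was 12.0% in Ctrl and 2.68% in cKO.

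Few cells carried the Shh UMIs. In Ctrl E9.5 there were 62 Shh-positive cells, of which 34 had at least 2 UMIs, the most in 1 cell was 11 and the 5 highest cells held 26.8% of the UMIs. In cKO E9.5 there were 10 positive cells, 5 with at least 2 UMIs, and the 5 highest held 73.7%. The cKO value thus rested on few cells.

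The 44 Shh-positive epithelial cells of Ctrl E9.5, of which 41 were in the endoderm sub-gate, differed from the other endoderm cells in several endoderm genes. Foxe1, a thyroid and pharyngeal endoderm factor, had a UMI in 81.8% of the 44 positive cells and in 27.2% of the 294 other cells of the endoderm sub-gate. Foxa2, a forkhead factor of foregut endoderm, was found in 34.1% and 8.84%, and Nkx2-3, a pharyngeal endoderm factor, in 75.0% and 56.5%, the last with overlapping intervals. Pax9, a marker of the pharyngeal pouches, went the other way, with 61.4% and 84.0%. The median depth was 15810.5 UMIs in positive and 18794 in the other cells, so the higher shares were not in the deeper cells. Foxe1, Nkx2-3 and Pax9 also belong to the list that set the sub-gate, whereas Foxa2 does not.

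Among the other Hedgehog genes, Ptch1 was present in 72.7% of these Shh-positive cells and in 49.3% of the other endoderm cells, at 92.3 UPM (71.9 to 117) against 52.0 UPM (46.2 to 58.3). The shares of Ptch1 had intervals that lay apart. Gli1 was present in 15.9% (6.64% to 30.1%) and 5.10% (2.88% to 8.28%), with overlapping intervals. Gli2 was present in 4.55% and 19.7%, Gli3 in 27.3% and 44.2% and Gas1 in 36.4% and 57.8%, all with the lower share beside Shh but with overlapping intervals, which held also for Smo (65.9% and 73.1%) and Hhip (6.82% and 5.78%). By level, Gas1 lay apart as well, at 33.0 UPM (21.3 to 48.6) and 60.6 UPM (54.4 to 67.3). So did Gli1, which was higher beside Shh, at 11.9 UPM (5.4 to 22.5) from 9 UMIs and 3.33 UPM (2.0 to 5.19) from 19 UMIs. The levels of Gli2, Gli3, Smo and Hhip had overlapping intervals. These are shares and levels of cells of 1 library, and the part of depth or of cells captured together in them was not tested.

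Ptch1, the receptor and a target of the pathway, was at 26.0 (Ctrl E8.5), 37.4 (cKO E8.5), 39.3 (Ctrl E9.5) and 43.8 UPM (cKO E9.5). Ctrl E8.5 stood lowest, and cKO exceeded Ctrl at both stages. The log2 ratio of cKO to Ctrl was 0.53 (0.38 to 0.67) at E8.5, where the median of all genes was 0.04, and 0.16 (0.09 to 0.22) at E9.5, or 0.41 above the median of all genes. Of the 7 members with enough UMIs at E8.5, 0 were called, where 4.22% of 12762 genes were.

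By gate, Ptch1 in Ctrl E9.5 was highest in the anterior second heart field (53.3 UPM), cardiomyocyte (50.7), multilineage progenitor (46.7), head mesenchyme (40.3) and epithelial (39.4) gates. Neighbours in this order had overlapping intervals. It then dropped to 24.7 UPM in the branchiomeric muscle, 16.2 in the neural and 9.30 in the endothelial gate. Within the epithelial gate the endoderm cells held 56.7 UPM of Ptch1 (51.0 to 62.9), against 13.9 (9.0 to 20.5) in the otic or surface cells.

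The head mesenchyme gate was the largest gate. The level of Ptch1 there was 23.2 (Ctrl E8.5), 45.1 (cKO E8.5), 40.3 (Ctrl E9.5) and 45.1 UPM (cKO E9.5), so that Ctrl E8.5 stood apart from the other 3 libraries. At E8.5 the log2 ratio of cKO to Ctrl was 0.96 (0.70 to 1.22), just under the 2-fold call, and 0 of 7 members were called in this gate where 4.57% of 10984 genes were. At E9.5 it was 0.16 (0.08 to 0.25), and 0 of 7 were called where 8.82% of 13703 genes were. Lower Ptch1 in cKO was seen in the branchiomeric muscle gate at E9.5, at 24.7 UPM in Ctrl and 14.4 UPM in cKO, a log2 ratio of -0.78 (-1.38 to -0.20). That interval held the median of all genes in this gate, which was -0.25. In the endoderm sub-gate Ptch1 was higher in cKO, at 56.7 and 79 UPM, a log2 ratio of 0.48 (0.14 to 0.80). In the cardiomyocyte gate at E8.5 it was called higher in cKO (5.42% of 6086 genes were called higher there) from 13 and 25 UMIs, and this log2 ratio of 1.16 became -0.23 when the discrete classes (epithelial, endothelial, cardiomyocyte, neural, neural crest and blood) were gated first.

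Hhip, which sequesters the ligand at the cell surface, was low in every library, at 3.84 (Ctrl E8.5), 3.38 (cKO E8.5), 4.07 (Ctrl E9.5) and 4.42 UPM (cKO E9.5), with overlapping intervals. Its log2 ratio of cKO to Ctrl was -0.19 (-0.62 to 0.25) at E8.5 and 0.12 (-0.08 to 0.32) at E9.5. In Ctrl E9.5 it was highest in the anterior second heart field gate at 13.1 UPM, from 16 UMIs, followed by the multilineage progenitor gate at 7.51 UPM, and lowest in the endothelial gate at 0.574 UPM. In the head mesenchyme gate it was 3.85 UPM in Ctrl and 4.62 UPM in cKO at E9.5. This gave a log2 ratio of 0.26 (-0.02 to 0.55), which turned to -0.04 when cells were gated after thinning. In the multilineage progenitor gate at E8.5 Hhip was called lower in cKO, from 29 and 6 UMIs (1.86% of 10259 genes were called lower there). The log2 ratio was -1.74, and it turned to 0.22 when cells were gated after thinning and 0.80 without cells reaching several classes.

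Gas1, a membrane-anchored co-receptor, was at 32.0 (Ctrl E8.5), 41.9 (cKO E8.5), 82.9 (Ctrl E9.5) and 87.9 UPM (cKO E9.5). Both E9.5 libraries were above both E8.5 libraries. The log2 ratio of cKO to Ctrl was 0.39 (0.26 to 0.52) at E8.5 and 0.09 (0.04 to 0.13) at E9.5. In the head mesenchyme gate at E9.5 the levels of 98.7 and 96.1 UPM gave a log2 ratio of -0.04, whose sign turned positive under TMM scaling, relative to the median of all genes and as a mean over cells.

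Across the gates of Ctrl E9.5 Gas1 had another order than Ptch1. It was highest in the epithelial gate at 112 UPM, then in head mesenchyme at 98.7 UPM and multilineage progenitors at 81.0 UPM, each of the first pair apart from the next. The cardiomyocyte gate held 42.4 UPM, apart from the endothelial gate at 15.3 UPM. Inside the epithelial gate Gas1 was 229 UPM (208 to 252) in the otic or surface cells and 57.7 UPM (51.9 to 63.8) in the endoderm cells, the reverse of Ptch1. In both sub-gates it was lower in cKO, at 157 UPM with a log2 ratio of -0.55 (-0.95 to -0.17) and at 39.5 UPM with a log2 ratio of -0.55 (-1.01 to -0.11). These differences were below 2-fold, where 14.9% of 7750 and 11.9% of 10449 genes were called. Both intervals held the median of all genes in the same cells, which was -0.23 and -0.21.

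**Figure D3:**
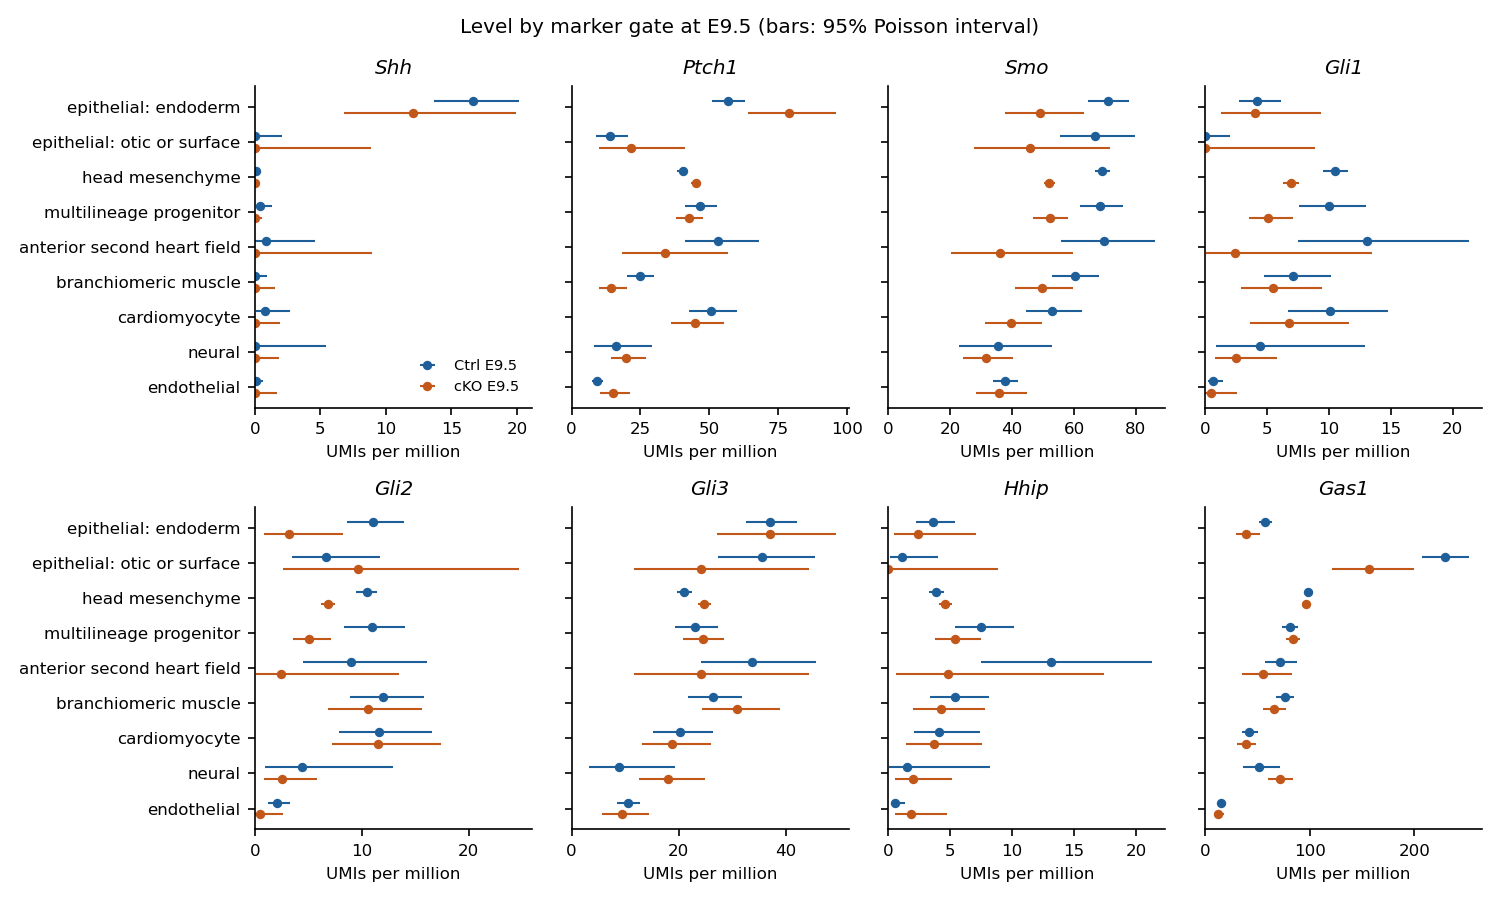
Level of each Hedgehog gene in UPM (horizontal axis, 1 panel per gene) by marker gate at E9.5 in Ctrl (blue) and cKO (orange), where horizontal lines are exact 95% Poisson intervals of counting error. Shh was seen in the endoderm sub-gate at 16.7 and 12.1 UPM and near 0 elsewhere, Gas1 was highest in otic or surface cells at 229 and 157 UPM, and in Ctrl the endothelial gate was lowest for Ptch1, Gas1 and, apart from the otic or surface cells with 0 UMIs, Gli1.

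Smo, the membrane protein that carries the signal inward, was found in every gate compared. It was at 41.8 (Ctrl E8.5), 45.1 (cKO E8.5), 65.3 (Ctrl E9.5) and 49.6 UPM (cKO E9.5). Ctrl E9.5 stood highest. In its gates the level ran from 69.7 UPM in the anterior second heart field to 35.4 UPM in the neural gate, and only the step from the cardiomyocyte (52.9) to the endothelial gate (37.7) separated the intervals of neighbours. The log2 ratio of cKO to Ctrl over all cells was 0.11 (-0.01 to 0.23) at E8.5 and -0.40 (-0.45 to -0.34) at E9.5, or -0.14 relative to the median of all genes. At E9.5 Smo was lower in cKO within the head mesenchyme (69.2 and 52.0 UPM), multilineage progenitor (68.5 and 52.2), epithelial (68.0 and 44.3) and ungated (71.3 and 46.1) cells, with log2 ratios of -0.41, -0.39, -0.62 and -0.63. All 4 intervals lay below 0, and none of these reached 2-fold.

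Gli1, the factor whose own transcription follows the signal, was at 3.72 (Ctrl E8.5), 5.21 (cKO E8.5), 8.40 (Ctrl E9.5) and 6.40 UPM (cKO E9.5). cKO was above Ctrl at E8.5 and below it at E9.5. The log2 ratio of cKO to Ctrl was 0.48 (0.09 to 0.88) at E8.5 and -0.39 (-0.54 to -0.24) at E9.5, or -0.13 relative to the median of all genes. In the head mesenchyme gate the levels were 3.33, 5.21, 10.5 and 6.96 UPM in the same order. The log2 ratio there was 0.65 (-0.07 to 1.40) at E8.5 and -0.59 (-0.78 to -0.40) at E9.5, the latter -0.40 both under TMM scaling and relative to the median of all genes. After thinning, a Gli1 UMI was found in 9.72% (8.54% to 11%) of Ctrl and 6.43% (5.64% to 7.29%) of cKO head mesenchyme cells at E9.5, and unthinned in 15.1% and 10.7%, with 16352 and 16182 UMIs in the median cell. Endothelial cells, with a median of 19893 UMIs in Ctrl E9.5, gave 0.504% after thinning.

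Gli1 was lower in cKO at E9.5 outside the mesenchyme as well. In the multilineage progenitor gate it was 10.0 UPM in Ctrl and 5.10 UPM in cKO, a log2 ratio of -0.97 (-1.63 to -0.33), just under 2-fold, and in ungated cells 10.3 and 6.77 UPM, a log2 ratio of -0.61 (-0.95 to -0.27). Ptch1, also a target, had log2 ratios of -0.13 and -0.12 in the same cells, and the first of these turned positive under TMM scaling and both did relative to the median of all genes. In the epithelial endoderm cells Gli1 was low and near equal, at 4.21 UPM from 27 UMIs and 4.03 UPM from 5 UMIs, and the otic or surface cells had 0 Gli1 UMIs in both genotypes. The endothelial gate was near the floor, at 0.689 UPM in Ctrl and 0.466 UPM in cKO.

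Gli2, the main activator, was at 12.4 (Ctrl E8.5), 18.0 (cKO E8.5), 9.47 (Ctrl E9.5) and 6.49 UPM (cKO E9.5). It was higher in cKO at E8.5 with a log2 ratio of 0.54 (0.33 to 0.75) and lower at E9.5 with a log2 ratio of -0.55 (-0.69 to -0.40), or -0.29 relative to the median of all genes. The same held in the head mesenchyme gate, at 13.6, 19.7, 10.4 and 6.81 UPM, with log2 ratios of 0.54 (0.18 to 0.90) and -0.62 (-0.81 to -0.43). In the multilineage progenitor gate at E9.5 Gli2 was called lower, at 10.9 and 5.10 UPM, a log2 ratio of -1.10 (-1.75 to -0.47), the 1 member called there, where 6.7% of 10978 genes were called lower. Relative to the median of all genes this ratio was -0.85 and no longer past 2-fold, nor was it under TMM scaling. Gli2 was also the 1 member called in the endoderm sub-gate, from 71 UMIs in Ctrl and 4 in cKO, a log2 ratio of -1.78 (-3.69 to -0.36), where 9.7% of genes were called lower. In the cardiomyocyte gate at E8.5 Gli2 was called higher in cKO, beside Ptch1, from the minimum of 20 UMIs (7 in Ctrl, 13 in cKO), with an interval of -0.32 to 2.67 around the log2 ratio of 1.11, which was 0.14 when the discrete classes were gated first.

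Gli3, the main repressor, was at 31.4 (Ctrl E8.5), 42.4 (cKO E8.5), 22.4 (Ctrl E9.5) and 24.1 UPM (cKO E9.5), so that both E8.5 libraries lay above both E9.5 libraries. Unlike Gli1 and Gli2 it was higher in cKO at both stages, with log2 ratios of 0.43 (0.30 to 0.57) and 0.10 (0.02 to 0.19). In the head mesenchyme gate the log2 ratio was 0.49 (0.27 to 0.71) at E8.5 and 0.23 at E9.5, from 21.1 and 24.8 UPM. In Ctrl E9.5 Gli3 was highest in the epithelial gate at 35.4 UPM (32.2 to 38.9). Neighbours in the order overlapped down to the cardiomyocyte gate at 20.3 UPM, although the head mesenchyme gate (19.7 to 22.5) lay below the epithelial one, and the endothelial gate at 10.5 UPM lay apart from the cardiomyocyte gate. In the neural gate at E9.5 it was called higher in cKO, where 5.07% of 7990 genes were, from 6 and 36 UMIs with an interval of -0.24 to 2.56 around the log2 ratio of 1.02.

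**Figure D4:**
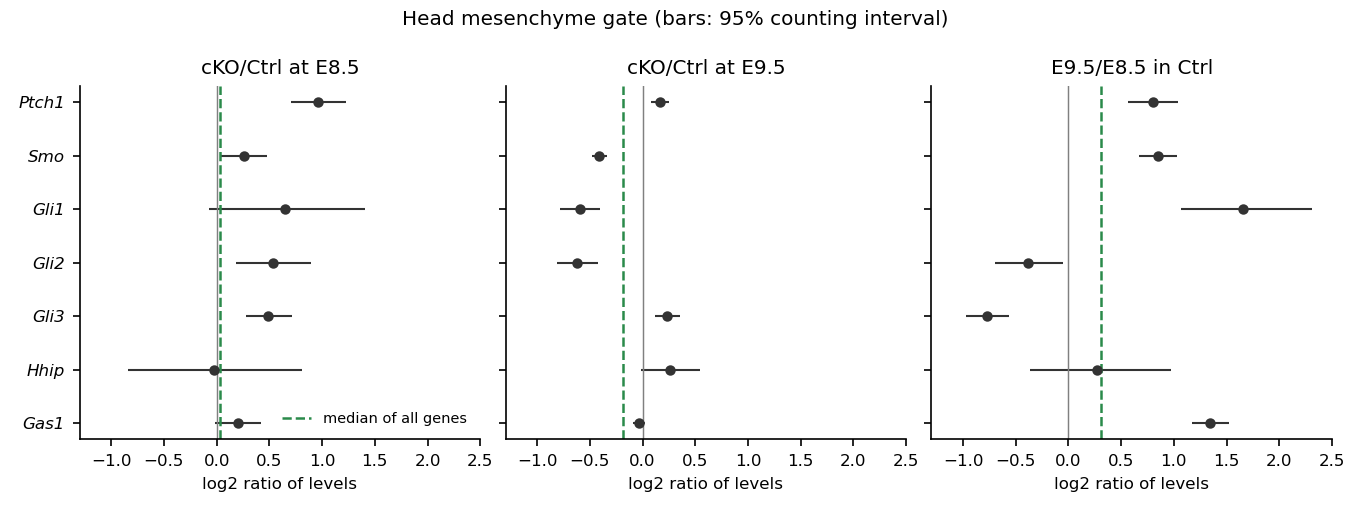
Log2 ratios of UPM in the head mesenchyme gate for 7 Hedgehog genes (Shh had too few UMIs), with 95% counting intervals, for cKO over Ctrl at E8.5, cKO over Ctrl at E9.5 and E9.5 over E8.5 in Ctrl, and the median of all genes as a dashed line. Gli2 and Smo lay above 0 at E8.5 (0.54 and 0.26) and below 0 at E9.5 (-0.62 and -0.41), whereas Ptch1 and Gli3 lay above 0 in both, and Gas1 at E9.5 (-0.04) turned positive under TMM scaling.

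From E8.5 to E9.5 in Ctrl, 3 of 8 members were called higher over all cells, where 17.9% of 14441 genes were and the median of all genes was 0.39. They were Shh with a log2 ratio of 2.73 (1.58 to 4.20), Gas1 with 1.37 and Gli1 with 1.17 (0.86 to 1.5). Relative to the median of all genes only 1 of them was still past 2-fold. Ptch1 (0.60) and Smo (0.64) were higher by less, and Gli2 (-0.38) and Gli3 (-0.49) were lower. Hhip was at 0.08, which turned to -0.24 under TMM scaling. The dissected tissue differed between the stages, so stage, tissue and library cannot be told apart.

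Within the head mesenchyme gate Gli1 (1.66) and Gas1 (1.34) were called higher at E9.5, where 14.4% of 12546 genes were and the median of all genes was 0.31. Ptch1 was at 0.80 and Smo at 0.85, while Gli3 was at -0.77 and Gli2 at -0.38. Gli1, Gas1, Ptch1 and Smo thus stood above the median of all genes, whereas Gli2, Gli3 and Hhip (0.27) stood below it. In the multilineage progenitor gate (12.6% of 10756 genes called higher) Gas1 (1.54) and Gli1 (1.08) were again the 2 members called. In the anterior second heart field gate (13.1% of 7044) Ptch1 and Gas1 were called. Ptch1 went from 16.3 to 53.3 UPM, a log2 ratio of 1.71 (0.77 to 2.78), and Gas1 from 34.1 to 71.3 UPM. These stage values share the Ctrl libraries with the genotype comparisons and are not independent of them.

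Cells picked by 1 marker, with at least 2 UMIs of it, gave a finer view of where the pathway genes lay in Ctrl E9.5, and the markers named here were chosen after these values were seen. The 56 cells with Tbx5, a factor of the posterior heart field and limb, had the highest Ptch1 named here, at 119 UPM, with Gli1 at 26.3 UPM and Gas1 at 25.4 UPM. The 833 cells with Tbx18, a mesodermal factor in the somitic marker list, had Ptch1 at 77.6, Gli1 at 16.8 and Gas1 at 43.9 UPM. In the 1511 cells with Prrx1, a mesenchyme factor, the balance was the opposite, with Ptch1 at 23.2, Gli1 at 7.30 and Gas1 at 128 UPM. Cells with Foxe1 had Shh at 51.3 UPM and Ptch1 at 109 UPM.

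The genotypes differed within some of these cells. Cells with Tbx18 had Ptch1 at 108 UPM in cKO E9.5, above the 77.6 UPM of Ctrl, while Gli1 was 12.3 UPM, below the 16.8 UPM of Ctrl. Cells with Wnt2 had Gli1 at 23.5 UPM in Ctrl and 7.61 UPM in cKO. Cells with Nkx2-3 had Shh at 20.5 UPM in Ctrl, from 85 UMIs in 222 cells, and 2.85 UPM in cKO, from 6 UMIs in 100 cells. The cells that carry a marker may not be of the same kind in both genotypes, and this was not tested.

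Within single cells of the head mesenchyme gate, thinned to 10000 UMIs, the receptor Ptch1 was found more often beside the other target genes. For background, 6.55% of endothelial cells of Ctrl E9.5 had a Ptch1 UMI. In head mesenchyme of Ctrl E9.5 it was present in 108 of 224 cells with Gli1 (48.2%, 41.5% to 55.0%) and in 25.4% of cells without it. In cKO E9.5 the shares were 45.3% and 27.2%. At E8.5 it was present in 13 of 26 cells with Gli1 and 25.4% of those without it in cKO, and in 27.8% of 18 cells and 17.0% in Ctrl. The direction was thus the same in all 4 libraries, but the intervals overlapped in both E8.5 libraries.

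Hhip gave a like picture, with Ptch1 in 65.4% of 81 cells with Hhip and 26.3% without it in Ctrl E9.5, and in 46.6% of 131 cells and 27.7% in cKO E9.5. Gas1 went the other way. In Ctrl E9.5 Ptch1 was present in 18.5% (16.2% to 20.9%) of 1061 cells with Gas1 and in 35.5% (32.8% to 38.2%) of 1244 cells without it, and in cKO E9.5 in 20.6% and 35.1%. At E8.5 the shares were 16.2% and 18.1% in Ctrl and 21.7% and 29.4% in cKO, with overlapping intervals. Gli1 was likewise found in 5.94% of cells with Gas1 and 12.9% without it in Ctrl E9.5, and in 4.44% and 8.15% in cKO E9.5. Smo gave no such difference, with Ptch1 in 28.1% of cells with Smo and 27.2% without it in Ctrl E9.5. In the epithelial gate of Ctrl E9.5 Ptch1 was present in 20 of 32 cells with Shh (62.5%, 43.7% to 78.9%) and in 25.1% of those without.

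**Figure D5:**
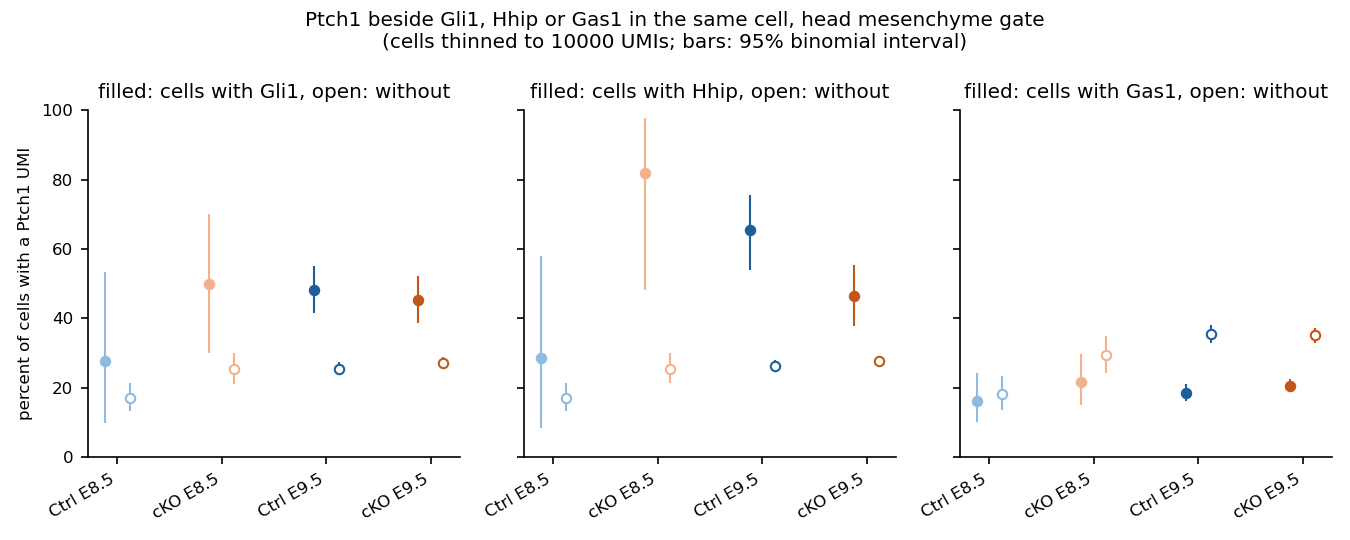
Percent of head mesenchyme cells, thinned to 10000 UMIs, with a Ptch1 UMI among cells with (filled) or without (open) a UMI of Gli1, Hhip or Gas1 in the 4 libraries, with exact 95% binomial intervals. At E9.5 Ptch1 was more frequent beside Gli1 (48.2% and 45.3%) and Hhip (65.4% and 46.6%) and less frequent beside Gas1 (18.5% and 20.6%) than in cells without them.

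Across 13 groups of Ctrl cells of both stages, among 13103 genes, the levels most like those of Shh were those of Tmem184a (Pearson r of 0.998), A830018L16Rik (0.995), Foxa1 (0.99), Gm12446 (0.99) and Prss22 (0.99). Foxa1 is a forkhead factor of endoderm and one of the endoderm markers. The levels most like those of Gli1 were those of Gstm5 (0.92), 2810442N19Rik (0.91), Msl3l2 (0.90), 3425401B19Rik (0.90) and Slc2a4 (0.90). Of the members, Ptch1 (0.85), Hhip (0.79) and Smo (0.76) were the most like Gli1 and Gli3 (0.19) and Shh (-0.08) the least. The values are correlations of log2(UPM + 10) over cell groups that share libraries and rest on few groups, and are given as a description. For Shh, only the epithelial gate of Ctrl E9.5 stood out, at 9.42 UPM against at most 0.820 UPM in any other group. Each correlation with Shh thus rests mainly on that group.

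The rest of the pathway was described by 4 lists of 35 genes. Of the ligands and their release, 1 of 5 with enough UMIs was called at E9.5, where 3.56% of 15130 genes were called higher and 9.8% lower. This was Scube1, a secreted protein that helps release the ligand, at 5.19 (Ctrl E8.5), 8.78 (cKO E8.5), 11.5 (Ctrl E9.5) and 33.3 UPM (cKO E9.5), a log2 ratio of 1.54 at E9.5. Of 4 receptors and co-receptors, Lrp2, an endocytic receptor of epithelia, was called lower, at 2.49 and 0.793 UPM. The co-receptors Boc and Cdon had log2 ratios of 0.19 and -0.26. Of 11 intracellular and cilium components, Kif3a, a motor of the cilium, was called lower at E9.5. Its levels of 9.83 (Ctrl E8.5), 10.1 (cKO E8.5), 32.3 (Ctrl E9.5) and 12.9 UPM (cKO E9.5) show that Ctrl E9.5 stood apart from the other 3 libraries.

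Of 12 genes known to respond to the Hedgehog signal, Foxa2 and Pax1 were called lower at E9.5 over all cells, as were 9.8% of all genes. Pax1, a factor of pharyngeal pouches and sclerotome, was at 18.1 UPM in Ctrl and 3.52 UPM in cKO, but at 199 and 145 UPM in the endoderm sub-gate, a log2 ratio of -0.46 (-0.69 to -0.23). Foxa2 was at 1.28 and 0.392 UPM over all cells, but in the endoderm sub-gate at 10.6 UPM in Ctrl and 21.8 UPM in cKO, where it was called higher, as were 2.16% of genes, with a log2 ratio of 1.04 (0.34 to 1.70). The direction of Foxa2 thus differed between all cells and endoderm cells, beside the lower share of endoderm cells in cKO given above. In the endoderm cells without a Shh UMI (294 in Ctrl, 52 in cKO), however, Foxa2 was at 7.18 UPM (5.15 to 9.74) in Ctrl and 10.1 UPM (5.06 to 18.1) in cKO. These intervals overlapped, so the call in endoderm cells rested in part on the 6 Shh-positive endoderm cells of cKO. In the multilineage progenitor gate at E9.5, 4 of 10 responding genes, Pax1 among them, were called lower, as were 6.7% of all genes. The cells of this gate differed, with the epithelial marker list at 74.0 UPM in Ctrl and 13.2 UPM in cKO. The endoderm list was at 75.3 and 19.2 UPM, and the part of such cells in these calls was not tested. In ungated cells 4 of 11 responding genes were called lower, as were 6.53% of all genes. In the head mesenchyme gate 0 of 10 were called, where 8.82% of all genes were. The epithelial gate had 1 of 9 called higher, where 2.47% of all genes were, and 0 lower.

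The medians of the 4 lists at E9.5 were -0.35 for ligands, -0.35 for receptors, -0.37 for intracellular components and -0.53 for responding genes, against -0.26 for all genes and -0.15 for the 8 members. At E8.5 the list medians were 0.61, 0.55, 0.09 and 0.35, against 0.04 for all genes and 0.43 for the 7 members tested, and 0 genes of each list were called over all cells. There the log2 ratio of cKO to Ctrl was 0.91 for Boc and 0.26 for Cdon. In the head mesenchyme gate at E8.5, 3 of 9 responding genes were called higher in cKO, as were 3.27% of all genes. The co-receptor list had 1 of 4 called higher there, Lrp2, from 5 and 20 UMIs. The responding genes were Foxf1 and Foxl1, forkhead factors of mesenchyme next to endoderm, and Osr1, a factor of lateral mesoderm. Foxf1 had 9 UMIs in Ctrl and 59 in cKO, a log2 ratio of 2.16, and Foxl1 had 22 and 73 UMIs, a log2 ratio of 1.18. At E9.5 the same pair was lower in cKO in that gate, with log2 ratios of -0.47 and -0.56.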

How the data were processed

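Single-cell RNA-seq of sorted GFP-positive cells was analysed from 4 libraries, 1 per group. The deposited values were raw UMI counts, made by the authors with Cell Ranger 3.1.0 on mm10 (GRCm38) per the submitters' processing notes, and per the file headers the matrices of both E8.5 libraries were written by version 3.0.2. The cKO E9.5 library was counted on a table of 31053 genes and the others on 27998, and only the 27514 shared identifiers were used, which held 99.4% to 99.9% of UMIs. The deposited barcodes were all kept, and the lowest total was 535 (Ctrl E8.5), 500 (cKO E8.5), 4415 (Ctrl E9.5) and 4225 UMIs (cKO E9.5).

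Cells were gated on 95 markers in 13 classes and 2 sub-lists, and UMIs were summed per gate and library. Levels carry exact Poisson intervals, ratios exact conditional binomial intervals and shares Clopper-Pearson intervals, all at 95%. These cover counting error only. A sum of 0 was set against a floor of 3 UMIs. The study's test over cells was not used, because cells are not replicates. For shares of cells, each cell was thinned to 10000 UMIs with the random seed 1, which left out 135, 84, 555 and 718 shallower cells of Ctrl E8.5, cKO E8.5, Ctrl E9.5 and cKO E9.5. No doublet caller was run. Cells reaching 3 markers of at least 2 of the epithelial, endothelial, cardiomyocyte, neural, neural crest and blood classes numbered 40, 30, 64 and 43 in the same order. Libraries shared 2 to 55 barcodes pairwise, at most 1.01% of the smaller library.

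The 8 members, the other lists and the marker lists were chosen with earlier results of these data known. All members were named, and of the other lists the genes called over all cells plus Boc and Cdon. A further gene of the receptor list is not reported here and was left out of the list's counts and medians. Foxf1, Foxl1, Osr1 and, in the mesenchyme, Lrp2 were named because few genes were called there, after their values were seen. Genes most like Shh and Gli1 were the 5 with the highest correlation in Ctrl cell groups of at least 20 cells, among genes with at least 50 UMIs. On simulated counts of the Ctrl E9.5 head mesenchyme cells, with 200 of 12348 genes changed, 95.4% of intervals held the true ratio, 98% of genes changed by 1.5 on the log2 scale were called and 0.115% of unchanged genes were. Alternatives were another scaling (TMM of edgeR 4.0.16 in R 4.3.3), a mean over cells, stricter barcodes, other gating rules and other thresholds. Python 3.11.15, NumPy 2.4.6, pandas 2.3.3, SciPy 1.17.1 and matplotlib 3.10.9 were used.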

Additional observations from a re-analysis of the deposited data

Results flagged for a closer look

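The cKO to Ctrl ratio of 3 Hedgehog genes had opposite signs at E8.5 and E9.5 with both counting intervals away from 0. The values are the log2 ratio at E9.5 minus that at E8.5, with 1 library per group, and the difference between the stages was not tested. For Gli1 over all cells it was -0.88, from 0.48 at E8.5 and -0.39 at E9.5. For Gli2 it was -1.08 over all cells (0.54 and -0.55), -1.15 in the head mesenchyme gate (0.54 and -0.62) and -1.16 in ungated cells (0.55 and -0.61). For Smo it was -0.67 in the head mesenchyme gate (0.26 and -0.41). Relative to the median of all genes each of these 5 values still came from opposite signs, with Gli1 over all cells at 0.44 and -0.13. For Gli1 at E9.5, however, the counting interval of -0.54 to -0.24 held that median, which was -0.26. The stages also differed in dissected tissue, and the cKO E8.5 cells were deeper than those of the other 3 libraries, at a median of 23984 UMIs, whose part was not tested.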

How the results depend on the processing

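No paired analysis was possible because each group had 1 library and no test was run, and for the same reason no library could be left out. Over 84 ratios of members, 843 of 924 values under alternatives lay within the counting interval of the value given, 78 lay outside it and 3 had the opposite sign of a called value. The 3 were Hhip in the multilineage progenitor gate at E8.5, with 0.22 when gated after thinning and 0.80 without cells reaching several classes, and Ptch1 in the cardiomyocyte gate at E8.5, with -0.23 when the discrete classes were gated first. Without cells reaching several classes, Shh at E9.5 was -4.36 over all cells and -2.58 in the epithelial gate, and its stage ratio in Ctrl was 1.54. Ptch1 in head mesenchyme at E9.5 was 0.36 under TMM scaling and 0.35 relative to the median of all genes, its stage ratio was 0.49 relative to that median, and Gli1 there was -0.40 under TMM scaling. With 1.5-fold in place of 2-fold, the members called were 2 in head mesenchyme at E9.5, 2 at E8.5, 5 between stages over all cells and 5 in head mesenchyme. As a mean over cells 1 member was called in head mesenchyme at E8.5, and relative to the median of all genes 1 between stages over all cells. With at least 2 UMIs required, Shh-positive cells were 2.41% of thinned Ctrl epithelial cells and 0% of cKO ones at E9.5. The discrete-class order and the values relative to the median were chosen after the data were seen. Few UMIs limit Shh in cKO E9.5 (19 UMIs), and few cells limit all members in the epithelial gate at E8.5 (13 in Ctrl, 12 in cKO).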

Other observations

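Some values belong to no comparison above. The posterior second heart field gate held 6 Ctrl and 23 cKO cells at E9.5, under the minimum in Ctrl. Its Ptch1 level was 118 UPM from 15 UMIs in Ctrl and 117 UPM from 46 UMIs in cKO, and Gli1 was 39.4 UPM from 5 UMIs and 17.8 UPM from 7 UMIs. At E8.5 the endoderm sub-gate held 6 cells of Ctrl and 7 of cKO, with 3 and 14 Ptch1 UMIs and 0 Shh UMIs in both. The 6 Shh UMIs of Ctrl E8.5 lay in 3 cells, of which 2 were ungated and held 5 of the UMIs.

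Cells with at least 2 UMIs of Pax9, a factor of pharyngeal pouch endoderm and arch mesenchyme chosen here after its values were seen, differed between the genotypes in several members at E9.5. Ptch1 was 59.5 UPM (55.2 to 64.1) in 612 such cells of Ctrl and 103 UPM (94.8 to 111) in 333 of cKO. Shh was 3.87 UPM from 45 UMIs in Ctrl and 0.642 UPM from 4 UMIs in cKO. Gas1 was 59.5 and 45.1 UPM, and Gli1 11 and 12.2 UPM. Whether these cells are of one kind in both genotypes was not tested.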
